A study of Mus musculus with 8 samples.

Results

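The genes described here were 34 genes of DNA replication and mitosis, picked by name for their roles, with no threshold on a measured value in the rule. All 34 were found among the 55487 genes of the read count table. They were 8 genes of replication licensing and helicase assembly, 5 genes of replication and nucleotide supply, 2 genes of chromatin copying, 5 genes of G1/S control and 14 genes of the G2 phase and mitosis. The counts came from RNA sequencing of muscle stem cells (MuSCs, the Pax7+ cells that regenerate skeletal muscle) of male C57BL/6 J mice, 21 days after surgery. In the 4 DEN samples the sciatic nerve of 1 side had been transected, and in the 4 Sham samples it was located but left intact. Per the study's reporting form the mice were 2 to 6 months old. Cells carrying α7-integrin were sorted from hind limb muscle, and cells that stained for CD31, CD45, CD11b, Sca-1 or the dead-cell dye Sytox were discarded. Not all cultured cells of this sort stained for Pax7, and the paper could not exclude that other cell types came with them.

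The study left out DEN replicate 1 after inspecting a multidimensional scaling plot. It is therefore shown apart here, and DEN replicates 2 to 4 were compared with Sham replicates 1 to 4. The labels give each sample as a separate replicate without naming the mouse, and the paper counts n for these data in animals. The p-values measure the spread between these samples. Library totals ranged from 26627173 to 34145854 counts, and 3 counts amounted to 0.0873 to 0.116 CPM (counts scaled to a common library total). DEN 2 stood apart by its macrophage and myeloid markers, whose sum over 14 genes was 128 CPM in it, compared with 7.93 and 6.75 CPM in DEN 3 and DEN 4, 4.24 CPM in DEN 1 and 17.1 to 53.6 CPM in Sham, with C1qb at 15.5 CPM against 0.44 and 0.24 CPM in DEN 3 and DEN 4. Most of each Sham sum was a single gene, Lyz2 (38.4, 16.2, 47.7 and 11.7 CPM in Sham 1 to 4), while C1qb was at 0.10 to 0.34 CPM in Sham. The values of the called genes of replication and mitosis without DEN 2 are given with them. Pax7 stood at 142 ± 12.5 CPM in DEN (SD, n = 3) and 126 ± 20.8 CPM in Sham (SD, n = 4). Levels below are CPM on library sizes scaled with edgeR, and fold changes are log2 values of DEN over Sham with their standard errors (SE). A gene was called at an adjusted p under 0.05 in edgeR's quasi-likelihood test, with Benjamini-Hochberg adjustment over the 17454 genes tested.

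A cell that is to divide first licenses its origins of replication. The origin recognition complex together with Cdc6 loads the ring-shaped MCM helicase, made of the subunits Mcm2 to Mcm7, and the GINS complex later joins it to form the active helicase. In S phase the clamp Pcna holds the polymerases on DNA, while ribonucleotide reductase (Rrm1, Rrm2), thymidylate synthase (Tyms) and thymidine kinase (Tk1) supply nucleotides. Uhrf1 and Hells help to copy DNA methylation onto the new strands. E2F factors, held back by the retinoblastoma protein until cyclin-dependent kinases act, drive many of these genes. The genes of mitosis are held silent in resting cells by the DREAM complex, which binds CHR elements, and they are induced later, when cyclins A and B activate Cdk1. MuSCs of uninjured muscle are mostly quiescent, that is, outside the cell cycle.

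E2F and CHR words were distributed differently over the promoters of licensing and mitotic genes. RefSeq promoters (GRCm38.p6, 250 bases before to 50 after the start) were on hand for 29 of the 34 genes, with none for Ccna2, Gins2, Mcm4, Aurkb and Ccne2. They were searched on both strands for 4 E2F words (TTTCCCGC, TTTCGCGC, TTTGCCGC and TTTGGCGC), for the CHR words TTTGAA and TTCGAA, and for CCAAT. An E2F word was present in 5 of 6 licensing genes (83.3%), in 1 of 12 mitotic genes (8.33%) and in 2.6% of all 27025 genes with a promoter. A CHR word was present in 10 of the 12 mitotic genes (83.3%), in 2 of 6 licensing genes (33.3%) and in 21.7% of all genes. CCAAT was present in 11 of 12 mitotic genes (91.7%), in 5 of 6 licensing genes (83.3%) and in 41.1% of all genes. None of the 5 genes of replication and nucleotide supply held an E2F or CHR word in this window. A match is a description of letters and not a mapped binding site.

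The 160 bases upstream of the RefSeq start of 4 genes, read 5′ to 3′ in the direction of the gene, show both kinds of promoter. Mcm6 and Mcm5 are licensing genes, Cdk1 is the mitotic kinase whose promoter held both kinds of word, and Cdc20 is a mitotic gene with a CHR word only. Capitals mark the E2F and CHR words on either strand, and words of opposite strands can overlap.
Mcm6, chr1:128359706-128359865, minus strand: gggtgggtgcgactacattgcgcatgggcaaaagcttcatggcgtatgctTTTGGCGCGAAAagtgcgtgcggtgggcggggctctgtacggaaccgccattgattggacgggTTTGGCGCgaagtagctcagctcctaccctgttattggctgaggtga
Mcm5, chr8:75109349-75109508, plus strand: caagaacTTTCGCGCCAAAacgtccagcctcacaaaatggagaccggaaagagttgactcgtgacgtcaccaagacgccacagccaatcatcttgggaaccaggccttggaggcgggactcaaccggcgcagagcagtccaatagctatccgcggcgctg
Cdk1, chr10:69352913-69353072, minus strand: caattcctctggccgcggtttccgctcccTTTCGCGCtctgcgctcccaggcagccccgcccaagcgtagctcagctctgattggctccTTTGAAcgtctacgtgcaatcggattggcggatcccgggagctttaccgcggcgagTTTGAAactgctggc
Cdc20, chr4:118437344-118437503, minus strand: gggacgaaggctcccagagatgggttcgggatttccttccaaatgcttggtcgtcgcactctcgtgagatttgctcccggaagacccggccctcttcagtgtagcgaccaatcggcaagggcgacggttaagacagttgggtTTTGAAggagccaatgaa
In Mcm6, E2F words lay 110 to 103, 106 to 99 and 47 to 40 bases before the start, the first and second overlapping on opposite strands. In Mcm5 an overlapping pair lay 153 to 142 bases before it. The E2F word of Cdk1 lay 131 to 124 bases upstream, and its CHR words lay 71 to 66 and 15 to 10 bases upstream. The CHR word of Cdc20 lay 18 to 13 bases upstream, so that both mitotic promoters carried a CHR word close to the RefSeq start. The start in GENCODE, used for gene positions here, differs from it. Of the bases shown, 26 in Cdk1 and 9 in Cdc20 lie in annotated exons. The nearer CHR word of Cdk1 is within them, that of Cdc20 is not.

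In both surgery groups the MCM subunits were measured with 377 to 3004 counts a library, and the mitotic genes with 0 to 280. To compare genes, the deposited RPKM values (reads scaled by library size and gene length) were used. The median RPKM over the 8 libraries reached 1 in 14 of the 34 genes. These were Cdk4, Pcna, Mcm2 to Mcm7, Rrm1, Rrm2, Cdk2, Tyms, E2f1 and, as the 1 mitotic gene of 14, Cdc20, an activator of the anaphase-promoting complex. This count depends on gene length, since a longer gene has a lower RPKM at the same number of reads. The union of annotated exons was 1868 bases for Cdc20, but 4934 for Cdk1 and 5860 for Cenpa. Cdk4, the partner of D-type cyclins, ranked highest with a median of 77.5 RPKM, followed by Pcna with 27.2 RPKM. At the other end, the median was 0.0417 RPKM for Mki67, which encodes the proliferation marker Ki67, and 0 for the spindle checkpoint kinase Bub1.

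The 6 MCM subunits, which assemble into 1 ring, did not have equal transcript levels per length. Their median RPKM was 17.0 for Mcm7, 14.9 for Mcm4, 9.01 for Mcm6, 7.19 for Mcm3, 5.35 for Mcm5 and 2.88 for Mcm2. In this order Mcm4 and Mcm6 did not overlap over the 8 libraries (13.4 to 18.3 RPKM against 7.56 to 11.8), nor did Mcm5 and Mcm2 (4.10 to 7.50 against 1.59 to 3.41). The other neighbours overlapped. No gene lengths were stated with the RPKM values, but they fit the union of annotated exons, 6956 bases for Mcm2 and 3993 for Mcm5. In scaled CPM, which takes no length into account, Mcm2 and Mcm5 overlapped (11.0 to 23.7 against 16.3 to 29.9 CPM). The order of these genes thus depends on the length used. In Mcm7, 557 exon bases lie within exons of other genes (Ap4m1, Cops6, Mir25 and Mir93), whose reads an unstranded count cannot assign.

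**Figure D1:**
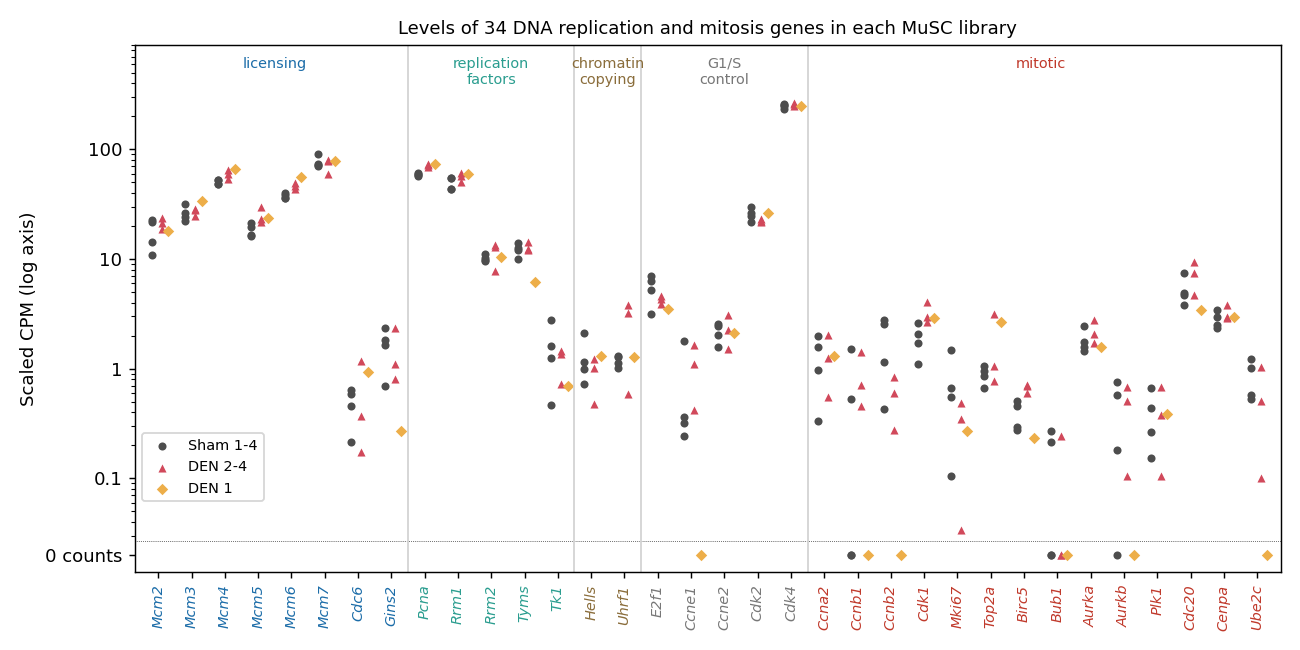
Level of each of the 34 genes in every library, as scaled CPM on a log axis, with 1 symbol per library for Sham 1 to 4, DEN 2 to 4 and DEN 1, and libraries without a count placed under the dotted line. Mcm2 to Mcm7 lie between 11.0 and 91.0 CPM in every library, while most mitotic genes lie around 1 CPM and 5 of them have no count in DEN 1.

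After denervation, Pcna and Mcm6 were higher, by 1.20-fold and 1.25-fold, and no other gene of the 34 passed the test. Of the 33 genes tested, 2 were called higher and 0 lower (6.06% in either direction, all of it higher), beside 10.6% of all genes tested, 5.29% higher and 5.32% lower. At an unadjusted p under 0.05, 6 were higher (18.2%, Mcm4, Mcm5, Mcm6, Pcna, Uhrf1 and Cdk1) and 1 was lower (Ccnb2), beside 12.5% and 12.9% of all genes. The groups did not overlap, with DEN higher, in 6 genes (18.2%, Mcm4, Mcm5, Mcm6, Pcna, Cdk1 and Birc5), beside 11.5% of all genes. Of the 33 log2 fold changes 24 were positive (72.7%), beside 49.9% of all genes, and their median was 0.17, beside -0.001 for all genes. In bulk RNA a difference in the number of cycling cells and in the RNA per cell cannot be told apart.

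**Figure D2:**
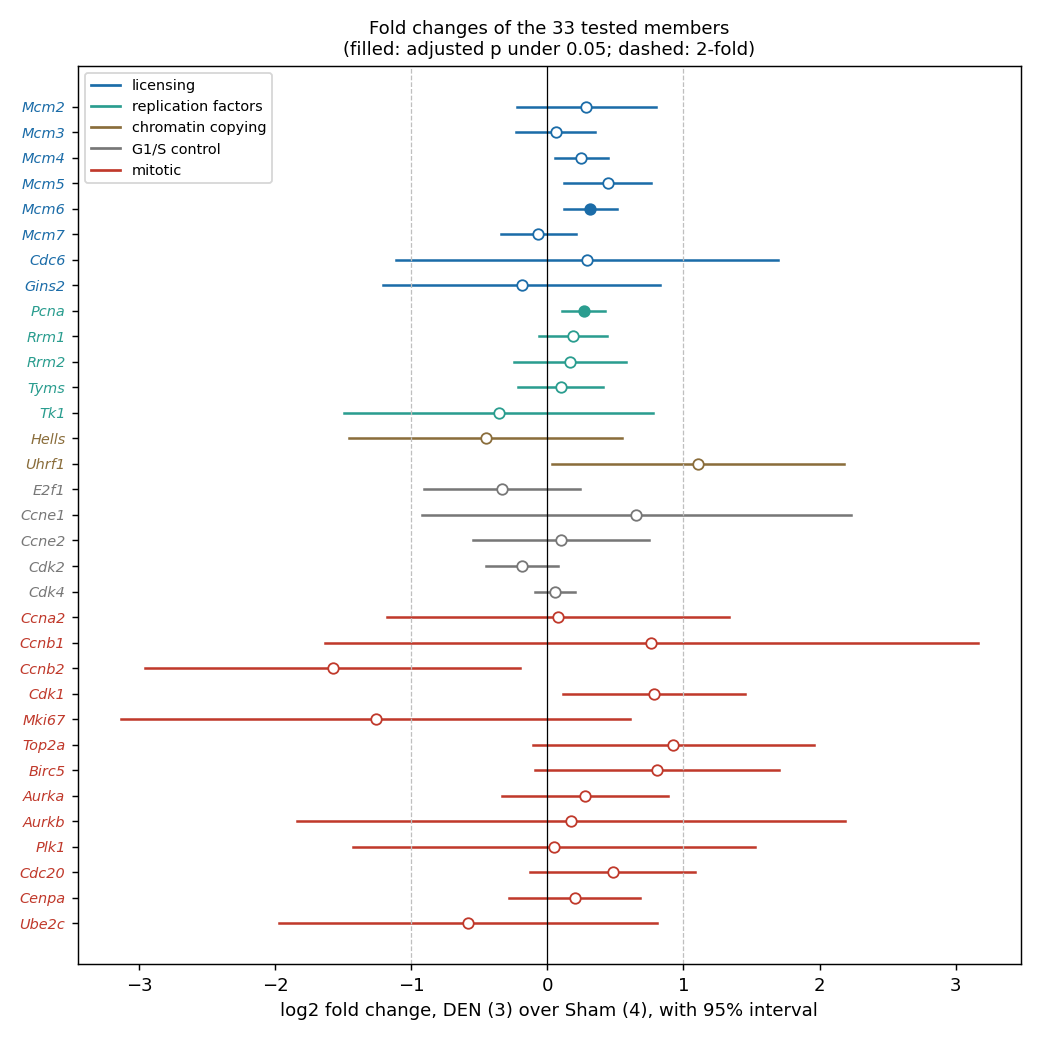
Log2 fold change of DEN 2 to 4 over Sham 1 to 4 for the 33 genes tested, with 95% confidence intervals, by group of genes. The intervals of Pcna and Mcm6, the genes called, lie above 0 and are narrow, while those of mitotic genes such as Ccnb1 (-1.64 to 3.16) are wide.

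Of the licensing genes, Mcm6, a helicase subunit (chromosome 1, 128331590 to 128359664, minus strand, GRCm38), stood at 43.5, 49.4 and 46.5 CPM in DEN 2 to 4 and at 35.9, 38.4, 35.6 and 40.3 CPM in Sham 1 to 4. Every DEN library was above every Sham library, and DEN 1 was the highest of all at 56.3 CPM. The means were 46.5 ± 2.96 CPM (SD, n = 3) and 37.6 ± 2.21 CPM (SD, n = 4), a log2 difference of 0.32 (SE 0.087, adjusted p = 0.0435 in edgeR's quasi-likelihood test). The call was lost (adjusted p 0.0622 to 0.142) when any 1 library other than Sham 4 was left out, whereas the log2 difference stayed between 0.27 and 0.37. Without DEN 2 it was 0.37 (adjusted p = 0.0622).

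Mcm5, another subunit of the ring (chromosome 8, 75109569 to 75128439, plus strand), had 29.9, 23.0 and 21.6 CPM in DEN 2 to 4 and 19.6, 16.4, 21.1 and 16.3 CPM in Sham 1 to 4. The groups did not overlap, although DEN 4 lay just above Sham 3, and DEN 1 with 23.8 CPM also lay above all Sham libraries. The log2 difference of 0.44 (SE 0.14) was the largest among the licensing genes but missed the threshold (adjusted p = 0.0785, edgeR), whereas DESeq2 called it (0.45, adjusted p = 0.0372, beside 13.2% of all genes called with it). Mcm4 showed a like pattern, with 53.6 to 65.2 CPM in DEN 2 to 4, 47.8 to 52.6 CPM in Sham and 65.9 CPM in DEN 1 (log2 difference 0.25, adjusted p = 0.102). Without DEN 2 the log2 difference of Mcm5 was 0.30 (adjusted p = 0.288).

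The remaining subunits overlapped between the groups. Mcm2 was measured at 23.7, 18.7 and 21.1 CPM in DEN 2 to 4 and at 21.8, 11.0, 14.2 and 22.8 CPM in Sham 1 to 4, with 18.0 CPM in DEN 1. Its Sham libraries fell into a pair near the DEN level and a pair below it, and the log2 difference was 0.28 (95% interval -0.23 to 0.80, adjusted p = 0.501). For Mcm3 the log2 difference was 0.06 (-0.23 to 0.35), and for Mcm7, the most abundant licensing gene, it was -0.07 (-0.34 to 0.21). For each of the 6 subunits the 95% interval lay within a 2-fold change in either direction.

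Cdc6 and Gins2, the licensing genes that are not part of the ring, were rare transcripts. Cdc6, the loader of the helicase, had 11, 37 and 5 counts in DEN 2 to 4 (0.371, 1.16 and 0.174 CPM), 7, 20, 13 and 19 counts in Sham 1 to 4 (0.212, 0.582, 0.452 and 0.642 CPM) and 24 counts in DEN 1 (0.925 CPM). The DEN libraries thus spanned the whole Sham range, and the log2 difference of 0.29 had a 95% interval of -1.11 to 1.69. The GINS subunit Gins2 ranged from 0.800 to 2.36 CPM in DEN 2 to 4 and from 0.697 to 2.36 CPM in Sham (log2 difference -0.19, adjusted p = 0.856). As 2758 of its 4097 exon bases also belong to Gse1, its counts are uncertain.

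**Figure D3:**
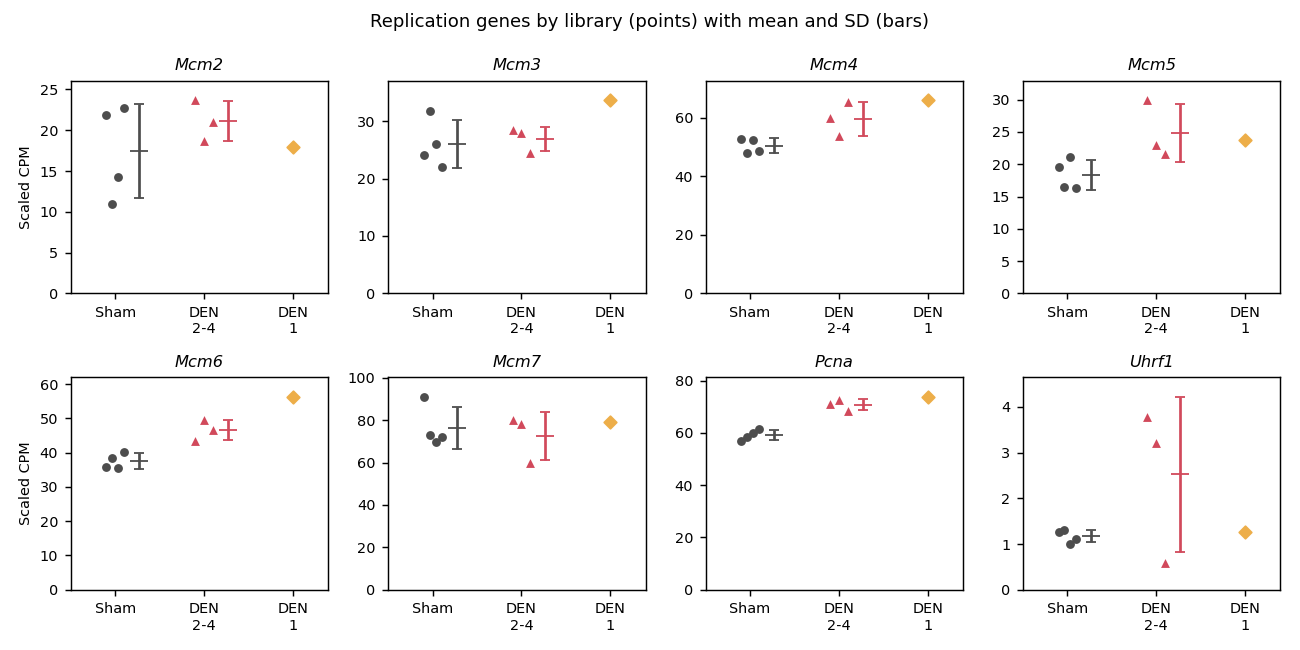
Scaled CPM of Mcm2 to Mcm7, Pcna and Uhrf1 in each library (points, axes from 0), with mean and SD as bars for Sham (n = 4) and DEN 2 to 4 (n = 3), and DEN 1 apart. Mcm4, Mcm5, Mcm6 and Pcna show no overlap between the groups, whereas the spread of Uhrf1 in DEN comes from DEN 2 and DEN 3 at 3.78 and 3.21 CPM against 0.591 CPM in DEN 4.

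Among the genes of replication and nucleotide supply, Pcna, the sliding clamp (chromosome 2, 132249162 to 132253314, minus strand), stood at 71.2, 72.7 and 68.5 CPM in DEN 2 to 4 and at 56.9, 58.5, 60.1 and 61.3 CPM in Sham 1 to 4. All DEN libraries, with DEN 1 at 73.8 CPM, lay above all Sham libraries. The means of 70.8 ± 2.13 CPM (SD, n = 3) and 59.2 ± 1.92 CPM (SD, n = 4) differed by 0.27 on the log2 scale (SE 0.070, adjusted p = 0.0371, edgeR). Leaving out any 1 library ended the call (adjusted p 0.0567 to 0.113), with log2 differences of 0.24 to 0.29, and without DEN 2 the log2 difference was 0.27 (adjusted p = 0.106).

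Pcna has a pseudogene, Pcna-ps2, to which 254 to 353 counts were assigned in each library. When both were added, the levels were 82.2, 83.8 and 80.7 CPM in DEN 2 to 4, 84.8 CPM in DEN 1 and 65.0, 67.4, 69.9 and 69.9 CPM in Sham 1 to 4, which left the groups without overlap.

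The nucleotide genes did not pass the test. Tyms, which makes thymidylate, was at 12.0, 12.4 and 14.4 CPM in DEN 2 to 4, at 14.0, 12.5, 10.1 and 12.1 CPM in Sham 1 to 4 and at 6.21 CPM in DEN 1. Without DEN 1 the groups overlapped almost fully (log2 difference 0.10, 95% interval -0.21 to 0.41). The large subunit of ribonucleotide reductase, Rrm1, ranged from 50.5 to 60.3 CPM in DEN 2 to 4 and from 43.4 to 54.9 CPM in Sham (0.19, adjusted p = 0.335). The small subunit Rrm2 had a log2 difference of 0.17 (adjusted p = 0.647) and the salvage enzyme Tk1 one of -0.36 (adjusted p = 0.734). Rrm2 and Tk1 thus gave values of opposite sign, each within its replicate error.

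Of the chromatin copying genes, Uhrf1, which binds hemimethylated DNA, was measured at 3.78, 3.21 and 0.591 CPM in DEN 2 to 4 and at 1.27, 1.31, 1.01 and 1.12 CPM in Sham 1 to 4. DEN 2 and DEN 3 lay above all Sham libraries, DEN 4 lay below all of them, and DEN 1 at 1.27 CPM was within the Sham range. The log2 difference of 1.11 (95% interval 0.04 to 2.18) had an adjusted p of 0.182 with all 3 DEN libraries and became 1.57 (adjusted p = 0.0065) without DEN 4, a fit in which 3.92% of all genes were called higher. It was 0.71 (adjusted p = 0.517) without DEN 2 and 0.92 (adjusted p = 0.253) with DEN 1 in the fit. The helicase-like remodeller Hells had a log2 difference of -0.45 (adjusted p = 0.603).

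No gene of G1/S control was called, and the abundant ones varied little. Cdk4 was measured at 265, 248 and 259 CPM in DEN 2 to 4, at 254, 261, 232 and 249 CPM in Sham 1 to 4 and at 249 CPM in DEN 1. Its 95% interval of -0.09 to 0.21 on the log2 scale lay within a 2-fold change. Cdk2, the partner of cyclins E and A, had 23.0, 22.4 and 21.8 CPM in DEN 2 to 4, 21.9, 26.3, 24.5 and 29.8 CPM in Sham 1 to 4 and 26.1 CPM in DEN 1 (log2 difference -0.19, adjusted p = 0.374). The DEN libraries were at the low end of the Sham range.

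E2f1, an activating E2F factor, was found at 3.84, 4.31 and 4.56 CPM in DEN 2 to 4, at 3.12, 5.18, 6.29 and 6.93 CPM in Sham 1 to 4 and at 3.47 CPM in DEN 1. All DEN values lay between the lowest Sham library and the other 3, and the log2 difference of -0.33 was within the replicate error (95% interval -0.91 to 0.24, adjusted p = 0.476). Cyclin E1 (Ccne1), which activates Cdk2, stood at 1.11, 1.64 and 0.417 CPM in DEN 2 to 4 and at 0.364, 0.320, 0.243 and 1.79 CPM in Sham 1 to 4, with no count in DEN 1. Sham 4 thus had the highest level of all, and the log2 difference of 0.65 (95% interval -0.92 to 2.23) became 1.77 (adjusted p = 0.0861) without it and 0.19 without DEN 3. Cyclin E2 (Ccne2) had a log2 difference of 0.10 (adjusted p = 0.882).

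None of the 13 mitotic genes tested was called, and for most of them the 95% interval reached past a 2-fold change. Over all 14 mitotic genes the mean levels ran from 0.104 CPM for Bub1, which was not tested, to 6.06 CPM for Cdc20. The SE of the log2 fold change was 0.22 to 1.08, compared with 0.087 to 0.23 for Mcm2 to Mcm7. The 95% interval lay within a 2-fold change in 2 of the 13 mitotic genes (Aurka and Cenpa) and in 6 of 6 MCM subunits. The median log2 fold change was 0.20 in the mitotic genes (range -1.58 to 0.92) and 0.27 in the 8 licensing genes (range -0.19 to 0.44). The order of the medians was not stable. When each library was left out in turn, the licensing median was above the mitotic one in 3 of 7 fits (0.23 and 0.06 without DEN 2, the library with the macrophage markers) and below it in 4 (0.23 and 0.49 without DEN 4, 0.20 and 0.31 without Sham 2, 0.23 and 0.36 without Sham 3, 0.29 and 0.42 without Sham 4).

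**Figure D4:**
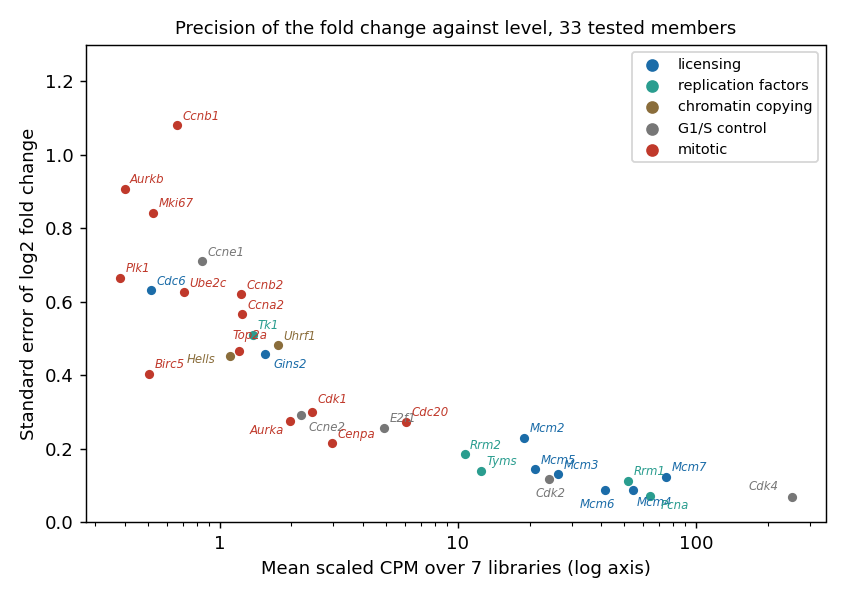
Standard error of the log2 fold change (vertical axis) against mean scaled CPM over the 7 libraries compared (horizontal log axis) for the 33 genes tested, coloured by group of genes. Most mitotic genes sit at the low-level end with an error of up to 1.08, whereas Mcm2 to Mcm7 have errors of 0.087 to 0.23.

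Mki67 had 1, 11 and 14 counts in DEN 2 to 4 (0.0337, 0.346 and 0.487 CPM), 22, 19, 3 and 44 counts in Sham 1 to 4 (0.667, 0.553, 0.104 and 1.49 CPM) and 7 counts in DEN 1 (0.270 CPM). The highest levels were in Sham libraries, but Sham 3 lay below DEN 3 and DEN 4. The log2 difference of -1.26 had a 95% interval of -3.13 to 0.61 (adjusted p = 0.40), and it was -0.61 without Sham 4 and -0.74 without DEN 2. Top2a, which untangles DNA before and during mitosis, was at 1.05, 3.15 and 0.765 CPM in DEN 2 to 4, at 0.849, 1.05, 0.660 and 0.946 CPM in Sham 1 to 4 and at 2.66 CPM in DEN 1. DEN 1 and DEN 3 stood above all other libraries, and without DEN 3 the log2 difference went from 0.92 to 0.05.

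Cdk1, the kinase that drives entry into mitosis (chromosome 10, 69335146 to 69352938, minus strand), was measured at 2.93, 2.64 and 4.03 CPM in DEN 2 to 4 and at 1.70, 1.11, 2.09 and 2.60 CPM in Sham 1 to 4. The groups did not overlap, and DEN 1 with 2.89 CPM also lay above all Sham libraries, but Sham 4 was nearly as high as DEN 3. The log2 difference of 0.78 (95% interval 0.12 to 1.45) did not pass the adjustment (unadjusted p = 0.0253, adjusted p = 0.13, edgeR).

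The cyclins that bind Cdk1 gave no common direction. Cyclin B1 (Ccnb1) had 0.708, 1.42 and 0.452 CPM in DEN 2 to 4 and 0, 0.524, 0 and 1.52 CPM in Sham 1 to 4, with no count in DEN 1. Presence and absence both occurred in Sham, and the log2 difference of 0.76 (95% interval -1.64 to 3.16) became 2.24 without Sham 4, 0.19 without DEN 3, 0.34 without Sham 1 and 0.36 without Sham 3. Cyclin B2 (Ccnb2), singled out after its values were seen, stood at 0.843, 0.598 and 0.278 CPM in DEN 2 to 4, at 0.424, 2.79, 1.15 and 2.53 CPM in Sham 1 to 4 and at 0 in DEN 1. All DEN libraries were below Sham 2 to 4, whereas Sham 1 lay within the DEN range. The log2 difference was -1.58 (95% interval -2.95 to -0.20, adjusted p = 0.141), and it was -1.90 (adjusted p = 0.0327) without Sham 1, a fit in which 5.32% of all genes were called lower.

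Ccnb2 has a pseudogene, Ccnb2-ps, with 16 to 60 counts a library, which was more than Ccnb2 itself in DEN 2 and DEN 4 (35 against 25 and 42 against 8 counts), in Sham 1 and Sham 3 (34 against 14 and 55 against 33) and in DEN 1 (40 against 0). How reads were split between the 2 copies was not tested. Cyclin A2 (Ccna2) had a log2 difference of 0.08 (adjusted p = 0.954).

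Plk1, a kinase of mitotic entry and the spindle, had 20, 12 and 3 counts in DEN 2 to 4 (0.674, 0.377 and 0.104 CPM), 5, 9, 19 and 13 counts in Sham 1 to 4 (0.152, 0.262, 0.660 and 0.439 CPM) and 10 counts in DEN 1 (0.385 CPM). The ranges of both groups were nearly the same, with a log2 difference of 0.05 and a 95% interval of -1.43 to 1.53. Birc5 (survivin), a subunit of the chromosomal passenger complex, was at 0.598 to 0.708 CPM in DEN 2 to 4 and 0.278 to 0.507 CPM in Sham (0.80, adjusted p = 0.25). DEN 1, at 0.231 CPM, was below every one of these libraries. Bub1, with 0, 0 and 7 counts in DEN 2 to 4, 7, 0, 0 and 8 counts in Sham 1 to 4 and 0 in DEN 1, was too low to be tested.

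For the other mitotic genes the log2 differences were 0.48 for Cdc20 (4.69 to 9.44 CPM in DEN 2 to 4, 3.82 to 7.42 CPM in Sham, adjusted p = 0.312), 0.28 for the spindle kinase Aurka (adjusted p = 0.599) and 0.17 for the passenger complex kinase Aurkb (adjusted p = 0.938). The centromeric histone Cenpa had a log2 difference of 0.20 (adjusted p = 0.636) and the ubiquitin-conjugating enzyme Ube2c one of -0.58 (adjusted p = 0.635). None of them separated the groups. Of the exon bases of Ube2c, 592 also belong to the muscle gene Tnnc2.

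**Figure D5:**
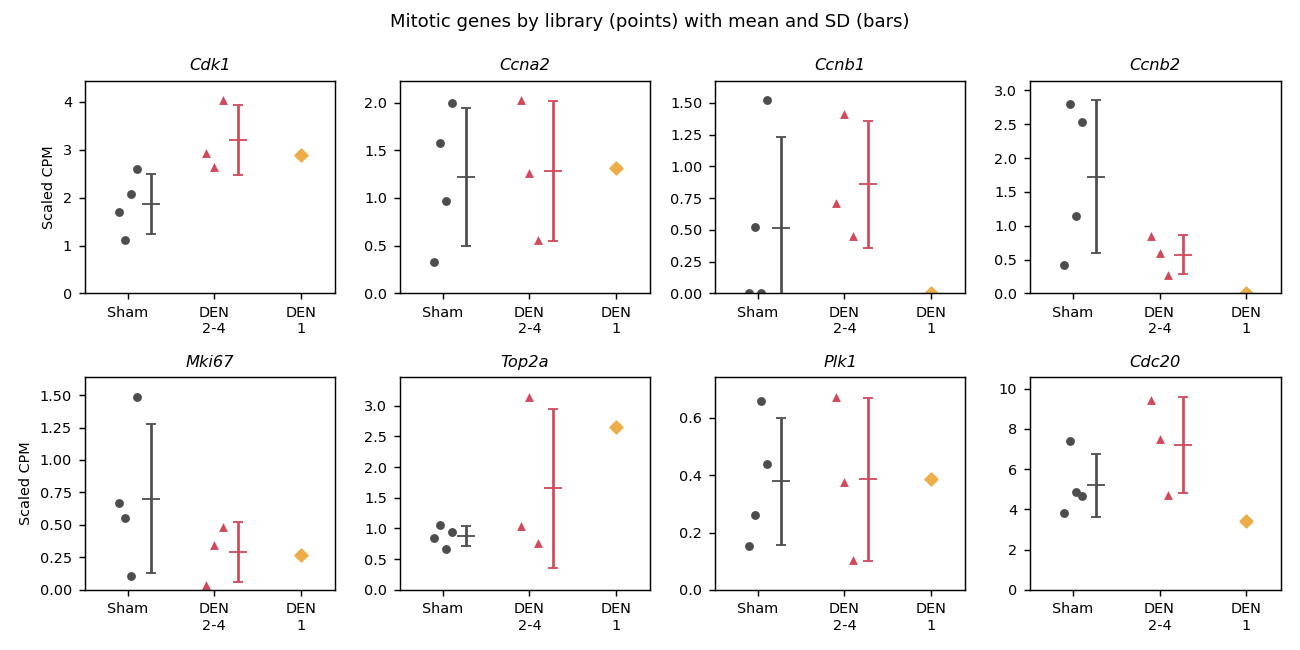
Scaled CPM of mitotic genes in each library (points, axes from 0), with mean and SD as bars for Sham (n = 4) and DEN 2 to 4 (n = 3), the lower bar ending at 0 where it would go below, and DEN 1 apart. Cdk1 shows no overlap between DEN 2 to 4 and Sham, while Mki67 spans 0.104 to 1.49 CPM within Sham.

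Summed over genes, the licensing genes stood higher than the mitotic genes, a difference of level that came from Mcm2 to Mcm7. The levels of Cdc6 and Gins2, and the SE of their log2 fold changes (0.63 and 0.46), lay within the range of the mitotic genes. The 8 licensing genes summed to 239.5 to 267 CPM in DEN 2 to 4, 221 to 246 CPM in Sham and 278 CPM in DEN 1. The sums overlapped because Sham 1 (246 CPM) lay above DEN 4 (239.5 CPM). The 14 mitotic genes summed to 18.1 to 25.8 CPM in DEN 2 to 4, 13.9 to 22.5 CPM in Sham and 15.7 CPM in DEN 1. DEN 1 was thus highest of the 8 libraries for licensing and the second lowest for mitosis. The difference between the fold changes of both groups of genes was not tested.

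DEN 1, which entered no fit above, had mitotic genes within or below the range of the other DEN libraries. Of the 14 mitotic genes, 7 were below the range of DEN 2 to 4, 7 within it and 0 above it, and 5 had no count, compared with 0 to 3 in the other libraries. Of the 8 licensing genes, 3 were above the range of DEN 2 to 4, 2 below and 3 within. Compared with the Sham range, 5 licensing genes were above, 1 below and 2 within, and 2 mitotic genes were above, 4 below and 8 within. With DEN 1 in the fit, Pcna (log2 difference 0.27, adjusted p = 0.0232) and Mcm6 (0.38, adjusted p = 0.0237) were again called, beside 11.5% of all genes.

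The wider machinery was described with 4 lists that share no gene with the 34. Of 20 tested genes of origins and helicase activation, 0 were called higher and 1 lower, with a median log2 fold change of -0.09. The gene called was Orc6, a subunit of the origin recognition complex, which fell from 41.0 ± 3.62 CPM (SD, n = 4) to 30.7 ± 2.53 CPM (SD, n = 3, log2 difference -0.41, adjusted p = 0.0306), with 32.8 CPM in DEN 1. Its call was lost in 4 of 7 fits without 1 library (DEN 2, DEN 4, Sham 2 or Sham 4, adjusted p of up to 0.104). Of 30 genes of polymerases and the fork, 1 was called higher and 0 lower (median 0.11). It was Timeless, a fork protection factor, with 13.0 ± 1.90 CPM in DEN and 8.37 ± 0.914 CPM in Sham (0.64, adjusted p = 0.0215). DEN 1, at 8.06 CPM, was within the Sham range of 7.47 to 9.63 CPM, and with it in the fit the adjusted p was 0.114. The call was also lost without DEN 3, DEN 4 or Sham 4 (adjusted p of up to 0.0796), but not without DEN 2 (adjusted p = 0.0315). Both lists, at 5% and 3.33% called, were below the 10.6% of all genes.

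Of 54 tested genes of the spindle and cell division, 2 were called higher and 0 lower (3.7%, median 0.11). Mad2l1, a spindle checkpoint protein, rose from 9.10 ± 1.36 CPM in Sham (SD, n = 4) to 13.2 ± 1.70 CPM in DEN (SD, n = 3, log2 difference 0.55, adjusted p = 0.0492), with 11.3 CPM in DEN 1. This call was lost with DEN 1 in the fit (adjusted p = 0.0602) and without any 1 library other than DEN 4 (adjusted p of up to 0.172, without DEN 2). Fam83d, a spindle protein, was at 0.181 ± 0.131 CPM in Sham and 2.26 ± 1.05 CPM in DEN (3.64, adjusted p = 0.00594), with 0.848 CPM in DEN 1. Its highest library was DEN 2 at 3.44 CPM, and without DEN 2 the log2 difference was 3.21 (adjusted p = 0.0343). Of 15 tested genes of the E2F, retinoblastoma and DREAM families, 1 was called higher and 1 lower (13.3%, median 0.13). E2f2, an activating factor like E2f1, fell from 11.6 ± 1.64 CPM to 5.61 ± 0.542 CPM (-1.04, adjusted p = 0.00255), with 8.71 CPM in DEN 1 and a log2 difference of -1.02 without DEN 2 (adjusted p = 0.0145). Lin52, a core subunit of DREAM, rose from 31.3 ± 2.76 CPM to 40.0 ± 3.40 CPM (0.36, adjusted p = 0.0447), with 39.7 CPM in DEN 1. Leaving out DEN 2, DEN 4, Sham 1, Sham 3 or Sham 4 ended that call (adjusted p of up to 0.146, without DEN 2).

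Markers of other cells were present at differing levels, and the calls below stand beside 10.6% of all genes tested. Fibro-adipogenic markers (5 of 5 tested, 1 called lower) summed to 419.6 to 554 CPM in DEN 2 to 4 and 604 to 710 CPM in Sham, smooth muscle and pericyte markers (5 of 5 tested, 2 called lower) to 5899 to 6504 and 6970 to 9149 CPM, and erythroid markers (6 of 6 tested, 4 called lower) to 1373 to 2040 and 3553 to 7060 CPM. The sums did not overlap, but not every marker followed them. The fibro-adipogenic call was Dcn, and the other markers of that list summed to 375 to 435 CPM in DEN 2 to 4 and 379.7 to 454 CPM in Sham. The smooth muscle calls were Acta2 and Myh11, while Pdgfrb and Cspg4 had log2 differences of 0.13 and 0.03. Endothelial markers (0 called) summed to 150.3 to 181 and 165 to 218 CPM, and Schwann cell markers (2 called higher, 1 lower) to 123.5 to 269.9 and 251 to 372 CPM, so that both overlapped. Most of the endothelial sum was Tek (means of 156 CPM in DEN and 172 CPM in Sham). Cdh5 was lower in DEN without overlap (0.972 against 2.85 CPM, log2 difference -1.54, adjusted p = 0.0611, edgeR). Pecam1, Kdr and Emcn overlapped (0.45, -0.24 and 0.56). Of the macrophage and myeloid markers 7 of 14 were tested and 1, C1qb, was called higher, a call lost without DEN 2 (log2 difference 0.54, adjusted p = 0.733). Lymphocyte markers summed to 6.26 to 7.80 and 3.38 to 5.97 CPM, with Cd3d, Cd3g, Nkg7 and Ms4a1 at 0 in the 7 libraries, and neutrophil markers to 0.440 to 1.18 and 0 to 0.0347 CPM, with S100a8 called higher and Ly6g, Mpo and Elane at 0. The 10 MuSC markers (2 called higher, Myf5 and Cdh15) summed to 9411 to 10250 and 8491 to 9886 CPM. Cells of other types can also divide, and the part of these cells in the levels of the mitotic genes was not tested.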

How the data were processed

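RNA of sorted MuSCs was amplified with SMART-Seq v4 and made into Nextera XT libraries, 1 per sample. Per the submitters' processing notes, bcl2fastq 2.20.0.422, cutadapt 2.1, TopHat2 2.1.0 (GRCm38) and featureCounts 1.6.5 were used. The deposited values used here were raw read counts per gene, without strand or molecular identifiers, and the authors' RPKM values, used only for levels between genes. The deposited RPM values were not used, since they carry the same information as the counts.

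Genes were filtered with filterByExpr (minimum count 10, minimum total 15), which kept 17454 of 28772 genes with a count, scaled with TMM and tested with glmQLFit and glmQLFTest of edgeR 4.0.16 (limma 3.58.1, R 4.3.3) on DEN 2 to 4 against Sham 1 to 4. The biological coefficient of variation was 0.161. The fit was tested on simulated data. Alternatives were DESeq2 1.42.0, RLE scaling, no count filter, all 8 libraries, a replicate block and leaving out each library.

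The 34 genes and all lists were chosen with earlier results of these data known. Values of every library are given for each gene called and for a set of 15 (Mki67, Top2a, Ccnb1, Cdk1, Plk1, Mcm2, Mcm5, Cdc6, Pcna, Tyms, Ccne1, Cdk2, Cdk4, E2f1 and Uhrf1), whatever their values, and the other genes by range and fold change. From each of the 4 lists of further replication and division genes up to 3 called genes with the smallest adjusted p are named. Positions are from GENCODE M21 (GRCm38), promoters and their starts from RefSeq, so that the start of a gene can differ between them.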

Additional observations from a re-analysis of the deposited data

Results flagged for a closer look

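Each of the 34 genes was examined for 1 library far from the rest within the 4 DEN libraries (DEN 1 included) and within the 4 Sham libraries, by Dixon's criterion at 95%. Of 68 such groups 5 met it, where chance gives about 1 in 20. Mcm7 did so in both groups, with 59.6 CPM in DEN 4 beside 78.0 to 79.9 CPM in the other DEN libraries, and with 91.0 CPM in Sham 1 beside 69.7 to 72.9 CPM in the other Sham libraries. Cenpa was at 3.81 CPM in DEN 2, the other DEN libraries being at 2.89 to 2.97 CPM. Ccne1 was at 1.79 CPM in Sham 4, compared with 0.243 to 0.364 CPM in the other Sham libraries. Within DEN, Bub1 was detected in DEN 4 only, at 0.243 CPM. As the other DEN libraries had no count, any count in DEN 4 would have met the criterion. Bub1 also had 7 counts in Sham 1 and 8 in Sham 4.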

How the results depend on the processing

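The calls of Pcna and Mcm6 were close to the threshold. In the main fit 5.29% of all genes were called higher. The number of the 34 genes called higher was 2 with all 8 libraries (beside 5.73% of all genes) and with RLE scaling (5.16%). It was 3 with DESeq2 (Mcm5 added, 6.57%) and 0 without the count filter (2.97%), where 28772 genes share the adjustment. When each library was left out in turn it was 0 to 1, beside 3.19% to 5.24% of all genes. The number called lower went from 0 to 1 without Sham 1 (Ccnb2). Over 12 alternatives Pcna was called in 3 (log2 difference 0.24 to 0.29) and Mcm6 in 4 (0.27 to 0.38). Leaving out 1 library gave a licensing median of 0.15 to 0.29 and a mitotic median of 0.06 to 0.49. DEN and Sham samples share replicate numbers. The deviations of the same numbers correlated at 0.0145, 0.0162 and -0.107, and those of different numbers at -0.048 to 0.0668. No pairing was thus detected, but values this small cannot show that there was none. With the replicate block 0 of the 34 genes were called higher, beside 3.72% of all genes. The licensing and mitotic medians were then both 0.15, and 1335 genes of all were called, compared with 1853.

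Of the fold changes of the 33 genes tested, under alternatives other than a left-out library, 153 kept their direction and their side of the threshold, 4 lost a call, 1 gained a call and 7 changed sign. With a library left out these numbers were 198, 13, 2 and 18. Those that changed sign were uncalled genes, and the cause was not tested. With all 8 libraries the log2 difference was -0.22 for Aurkb and -0.10 for Tyms. With the replicate block it was -0.30 for Ccna2, -0.070 for Ccne2, -0.27 for Cdc6, 0.016 for Mcm7 and -0.37 for Plk1. Leaving out 1 library gave -0.30 to 0.76 for Aurkb, -0.40 to 0.44 for Ccna2, -0.18 to 0.33 for Ccne2, -0.77 to 0.71 for Cdc6, -0.77 to 0.096 for Gins2, -0.010 to 0.17 for Mcm3, -0.14 to 0.057 for Mcm7, -0.60 to 0.49 for Plk1 and -0.66 to 0.10 for Tk1. Of all genes 1098 were called without DEN 2 and 1231 without DEN 3. The floor of 3 counts covers counting error only, since PCR reads without molecular identifiers are not independent molecules.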

Other observations

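Among the Sham libraries, Sham 4 held the highest level for 16 of the 34 genes and the lowest for 3. For the 14 mitotic genes, Sham 4 was highest for 6 and Sham 2 for 5, while Sham 1 was lowest for 6.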
